A study of Mus musculus with 16 samples.

Results

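Genes of protein folding, quality control and stress signalling in the endoplasmic reticulum (ER) were followed through a time course of lipopolysaccharide (LPS) in RAW264.7, a mouse cell line that behaves like macrophages. They were chosen by symbol from a list of 39, of which 38 were in the table of 13832 genes, and all 38 passed the count filter that 9529 genes passed. Sels was not found under that symbol. Its gene, now called Selenos, stood in the table as Vimp and was kept out of every count of members. Ribosome footprints (fragments of mRNA covered by ribosomes) and input RNA (randomly fragmented cytoplasmic RNA) were sequenced from the same lysates after 15, 30, 45, 60, 75 and 90 min and 16 h with 100 ng/ml LPS, and from untreated cells at 0 min. Each of the 16 combinations of material and time was 1 library, and the cells of all groups were of the same line with no genetic change named. Untreated cells were sampled at 0 min alone, so LPS and the hours or handling in culture that went with it cannot be told apart.

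Proteins that enter the secretory pathway fold in the ER lumen with the help of chaperones, disulfide isomerases and sugar-binding chaperones, and those that fail are drawn back to the cytosol and destroyed. Unfolded protein in the lumen activates 3 membrane sensors, IRE1 (gene Ern1), PERK (Eif2ak3) and ATF6 (Atf6). IRE1 splices the mRNA of the transcription factor Xbp1, ATF6 is cut to release a transcription factor, and PERK slows translation, and the first pair raises transcription of many of the folding and degradation genes. In macrophages, Toll-like receptor signalling is known to engage parts of this response as secretion of cytokines increases.

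Each library held 6702930 to 6702932 counts, totals made equal before deposit by a step that the sources used here do not give. The cells carried all 8 listed macrophage genes, which were searched under 10 symbols because Adgre1 and Spi1 have older names. The genes had 24116 to 30817 summed counts per footprint library and 17144 to 18579 per input library. Lyz2 was the most abundant of them and Itgam the least in every library. At 16 h 3 of the 8 rose and 2 fell in footprints, against 25.9% and 24.2% of all tested genes. In input 5 rose and 2 fell, against 28.6% and 27% of all tested genes. Their part in the results was not tested. Markers of fibroblasts, epithelium and lymphocytes were near 0. The 1 fibroblast gene in the table, Pdgfrb, had 0 counts in every footprint library and 0 to 1 per input library. The 2 epithelial genes, Cdh1 and Krt8, had 0 to 1 summed counts per library in both materials, and the 1 lymphocyte gene, Cd79a, had 0 to 6 in footprints and 0 to 5 in input. The defining symbols Col1a1, Epcam and Cd3e were not rows of the table used here. Of 3 plasma cell genes (43 to 105 summed counts in footprints and 22 to 90 in input), Jchain was at 0 in all 8 input libraries and Sdc1, the 1 that was tested, fell at 16 h (-1.18 ± 0.22, adjusted p = 0.001 in footprints and -1.57 ± 0.36, adjusted p = 0.0033 in input, where without 0 min it was -1.40, adjusted p = 0.055). All 5 LPS response genes checked, Tnf, Il1b, Nfkbia, Cxcl10 and Ptgs2, rose within 90 min in both materials. Without the 0 min library the early changes of Tnf (4.90, adjusted p = 0.41, in footprints and 4.63, adjusted p = 0.13, in input) and Nfkbia (5.11, adjusted p = 0.13, and 4.04, adjusted p = 0.068) did not pass, nor did they with a linear time term (adjusted p = 0.51 and 0.22 for Tnf, and 0.18 and 0.098 for Nfkbia). Tnf footprints did not pass without the 15 min (adjusted p = 0.076) or the 45 min library (0.057) either.

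Promoters of these genes are known for the ER stress response element (ERSE), which the cut form of ATF6 and XBP1 can bind, so the matches are shown first. RefSeq sequences (GRCm38.p6, 250 bases before to 50 bases after a gene's start) were found for 32 of the 38 members. Manf, Hspa13, Hyou1, Sil1, Derl1 and Atf6 had none. ERSE was searched as CCAAT, any 9 bases and CCACG, and ERSE-II as ATTGG, any 1 base and CCACG, both on either strand. ERSE stood in the promoters of 9 of 32 members (28.1%), against 37 of all 27025 genes with a promoter (0.14%), and ERSE-II in 2 of 32 (6.2%), against 12 of 27025 (0.04%). Capitals mark the fixed letters, matches on the opposite strand are written as that strand reads, and distances are to the first base on the gene's strand.
Calr (ERSE, 162 bases before the start): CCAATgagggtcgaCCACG
Canx (ERSE, 145 bases before the start): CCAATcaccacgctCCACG
Creld2 (ERSE, 126 bases before the start): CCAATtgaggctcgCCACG
Dnajb11 (ERSE-II, 7 bases after the start): ATTGGcCCACG
Dnajc3 (ERSE, 105 bases before the start): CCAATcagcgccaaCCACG
Ero1lb (ERSE, 201 bases before the start): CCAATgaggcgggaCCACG
Herpud1 (ERSE-II, 52 bases before the start): ATTGGgCCACG
Hsp90b1 (ERSE, 212 bases before the start): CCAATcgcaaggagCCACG
Hsp90b1 (ERSE, 107 bases before the start): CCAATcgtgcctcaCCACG
Hspa5 (ERSE, 65 bases before the start): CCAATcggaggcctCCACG
Pdia6 (ERSE, 98 bases before the start): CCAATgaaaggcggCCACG
Syvn1 (ERSE, 44 bases before the start): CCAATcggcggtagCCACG
The whole windows of Hspa5 and Herpud1 follow, because both genes rose early and hold a match. Dnajb9, which rose early in both materials, and Ero1l, which rose early in input, had no ERSE or ERSE-II in theirs. The Hspa5 window (chr2:34771840-34772139, plus strand) holds an ERSE 65 bases before the start and a TGACGTG, the unfolded protein response element (UPRE), 157 bases before it. The Herpud1 window (chr8:94386179-94386478, plus strand) holds an ERSE-II 52 bases before the start. Capitals mark these matches.
Hspa5: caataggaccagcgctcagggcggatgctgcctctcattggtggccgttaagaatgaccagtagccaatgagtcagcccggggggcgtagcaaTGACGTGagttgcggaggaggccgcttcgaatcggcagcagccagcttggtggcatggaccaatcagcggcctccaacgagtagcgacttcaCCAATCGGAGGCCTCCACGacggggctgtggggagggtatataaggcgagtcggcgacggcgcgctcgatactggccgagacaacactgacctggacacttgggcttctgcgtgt
Herpud1: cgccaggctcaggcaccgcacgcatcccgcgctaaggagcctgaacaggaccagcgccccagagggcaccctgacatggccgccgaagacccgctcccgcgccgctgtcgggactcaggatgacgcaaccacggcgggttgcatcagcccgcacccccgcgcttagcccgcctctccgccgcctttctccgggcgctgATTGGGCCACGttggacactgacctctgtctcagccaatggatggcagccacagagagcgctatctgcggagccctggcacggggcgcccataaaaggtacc
TGACGTG was in 3 of 32 member promoters (9.4%; Hspa5, Txndc11 and Txndc5) and in 601 of all 27025 (2.22%). TGACGTCA, the cyclic AMP response element, was in 0 of 32 and in 549 of 27025 (2.03%). A match is a run of letters and not a shown site of binding.

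Over the first 90 min few of the members changed. Herpud1, Dnajb9 and Hspa5 rose and Eif2ak3 fell in both footprints and input, and in input Ero1l rose and Xbp1 fell as well. In footprints 3 of 38 members rose and 1 fell, against 12.2% and 8.30% of all tested genes, with a median change of -0.07 on the log2 scale (all genes -0.07). In input 4 of 38 rose and 2 fell, against 14.9% and 11.3% of all tested genes, with a median of 0.08 (all genes -0.04). Changes come from edgeR's quasi-likelihood test of a curve in time, with Benjamini-Hochberg adjustment over all 9529 genes at 0.05. The early change given is the log2 distance from the fitted value at 0 min, taken where the fitted curve is furthest from it. It stands with its standard error and relative to the typical gene. Changes at 16 h are likewise set against the fitted value at 0 or 90 min. They can therefore differ from ratios between single libraries. Without the 0 min library its fitted value is extrapolated from 15 to 90 min, with no untreated cells. Without the 30 min library 4 members rose and 3 fell in footprints, and 10 rose and 3 fell in input. In that fit 1376 of all 9529 tested genes rose and 902 fell in footprints, and 1619 rose and 1136 fell in input. With scaling by total counts 3 members rose and 14 fell in footprints, and 3 rose and 4 fell in input. Under that scaling 738 of all 9529 tested genes rose and 2610 fell in footprints, and 988 rose and 1866 fell in input. The median of all tested genes then stood at -0.32 in footprints and -0.17 in input.

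By 16 h many more members stood above 0 min. In footprints 19 of 38 rose and 3 fell, against 25.9% and 24.2% of all tested genes, with a median change of 0.35 (all genes 0.00). In input 26 of 38 rose and 3 fell, against 28.6% and 27.0% of all tested genes, with a median of 0.51 (all genes 0.01). The rise passed the test in both materials for 19 members, the fall for 2 (Uggt1 and Txndc5), none moved in opposite directions, and 8 passed in neither. The 7 members that passed the test upward in input and not in footprints were Calr, Derl2, Hsp90b1, Pdia3, Pdia4, Pdia6 and Txndc11, and no difference between the materials passed the density test for any of them. Of the 26 that rose in input, 22 had not passed the early test, nor had 16 of the 19 that rose in footprints. Over all tested genes 14.9% rose and 11.3% fell early in input, and 12.2% and 8.3% in footprints. Passing in both materials, or both early and late, was not counted over all tested genes. Without the 0 min library 13 members rose and 1 fell in footprints. In that fit 1520 of all 9529 tested genes rose and 1495 fell. With scaling by total counts 16 members rose and 5 fell in footprints (median of all genes -0.10). In input 23 members then rose and 3 fell (median of all genes -0.16). Under that scaling 2099 of all 9529 tested genes rose and 2764 fell in footprints, and 2129 rose and 3362 fell in input.

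**Figure D1:**
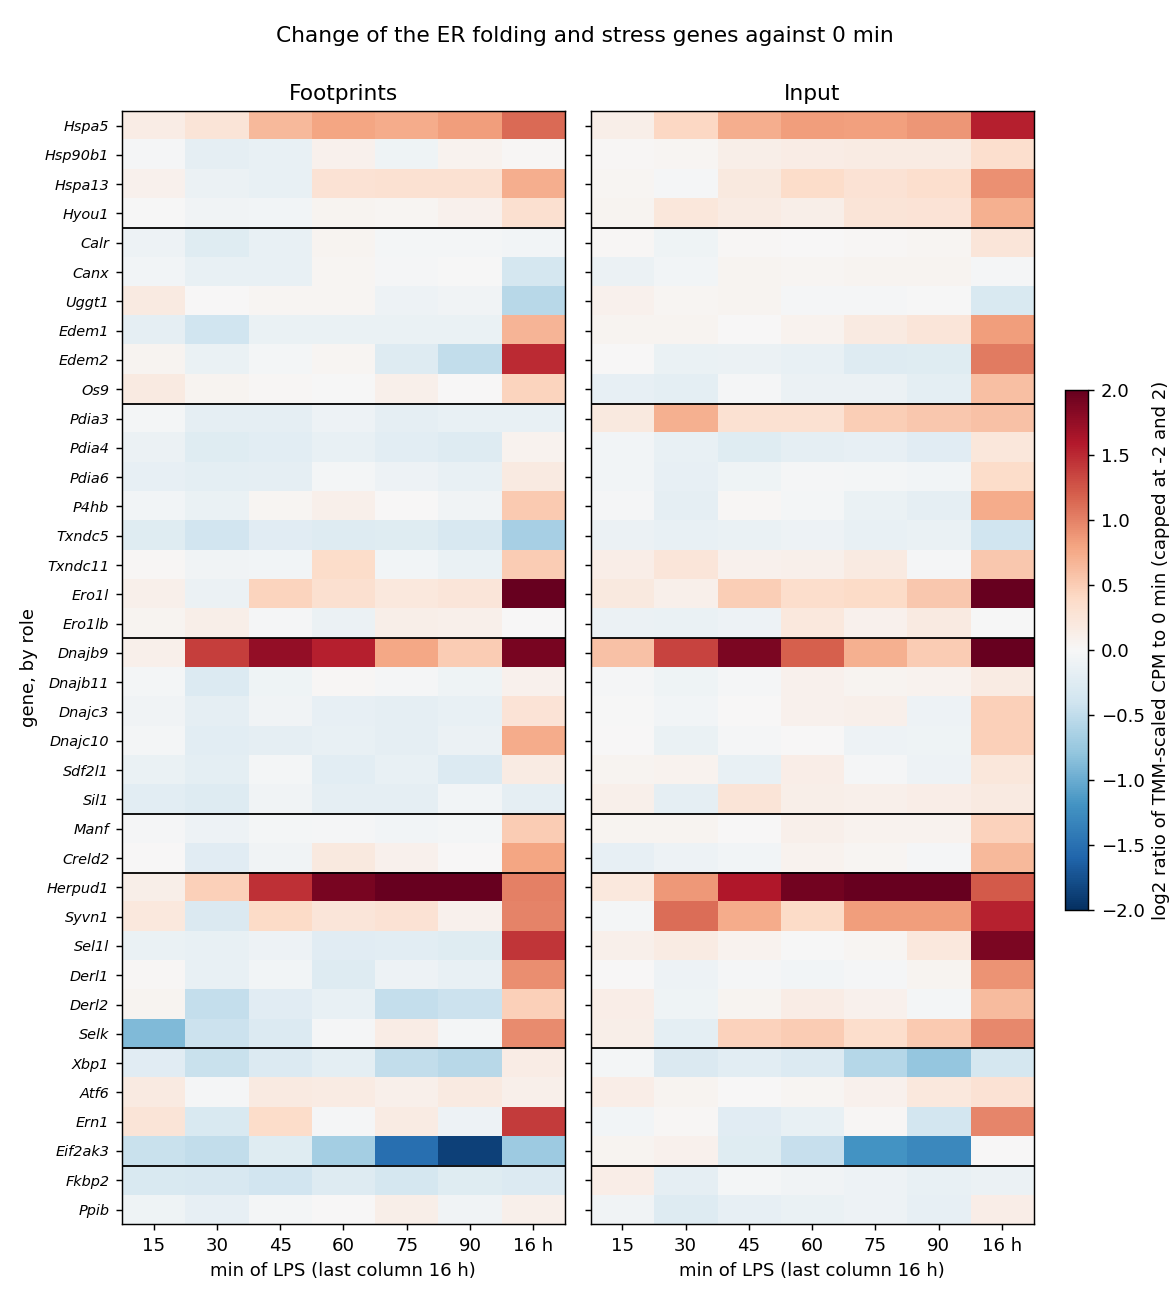
Log2 ratio of TMM-scaled CPM to 0 min for 38 genes grouped by role, with footprints on the left and input on the right; each cell is 1 library at 15 to 90 min or 16 h, and colour is capped at -2 and 2. Herpud1, Dnajb9 and Hspa5 are red in both panels before 90 min, Eif2ak3 turns blue by 75 min, and the 16 h column is red for most genes.

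Set against 90 min, the 16 h library showed a like number. In footprints 22 of 38 rose and 4 fell, against 25.6% and 25.0% of all tested genes, with a median of 0.41 (all genes 0.02). In input 22 of 38 rose and 3 fell, against 26.6% and 25.8%, with a median of 0.45 (all genes 0.00). The rise passed all 4 of the 16 h tests for 14 members: Creld2, Derl1, Dnajb9, Dnajc10, Dnajc3, Edem1, Edem2, Ern1, Ero1l, Hspa5, Manf, Os9, P4hb and Sel1l. How many of all tested genes did so was not counted. Herpud1 was below its 90 min level in both materials. Both comparisons share the 16 h library and the same fit. Without the 90 min library 9 members rose and 3 fell in footprints, and 13 rose and 1 fell in input. In that fit 1581 of all 9529 tested genes rose and 1686 fell in footprints, and 1752 rose and 1901 fell in input. With scaling by total counts 25 members rose and 1 fell in footprints. Under that scaling 3025 of all 9529 tested genes rose and 1826 fell, with a median of 0.18.

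**Figure D2:**
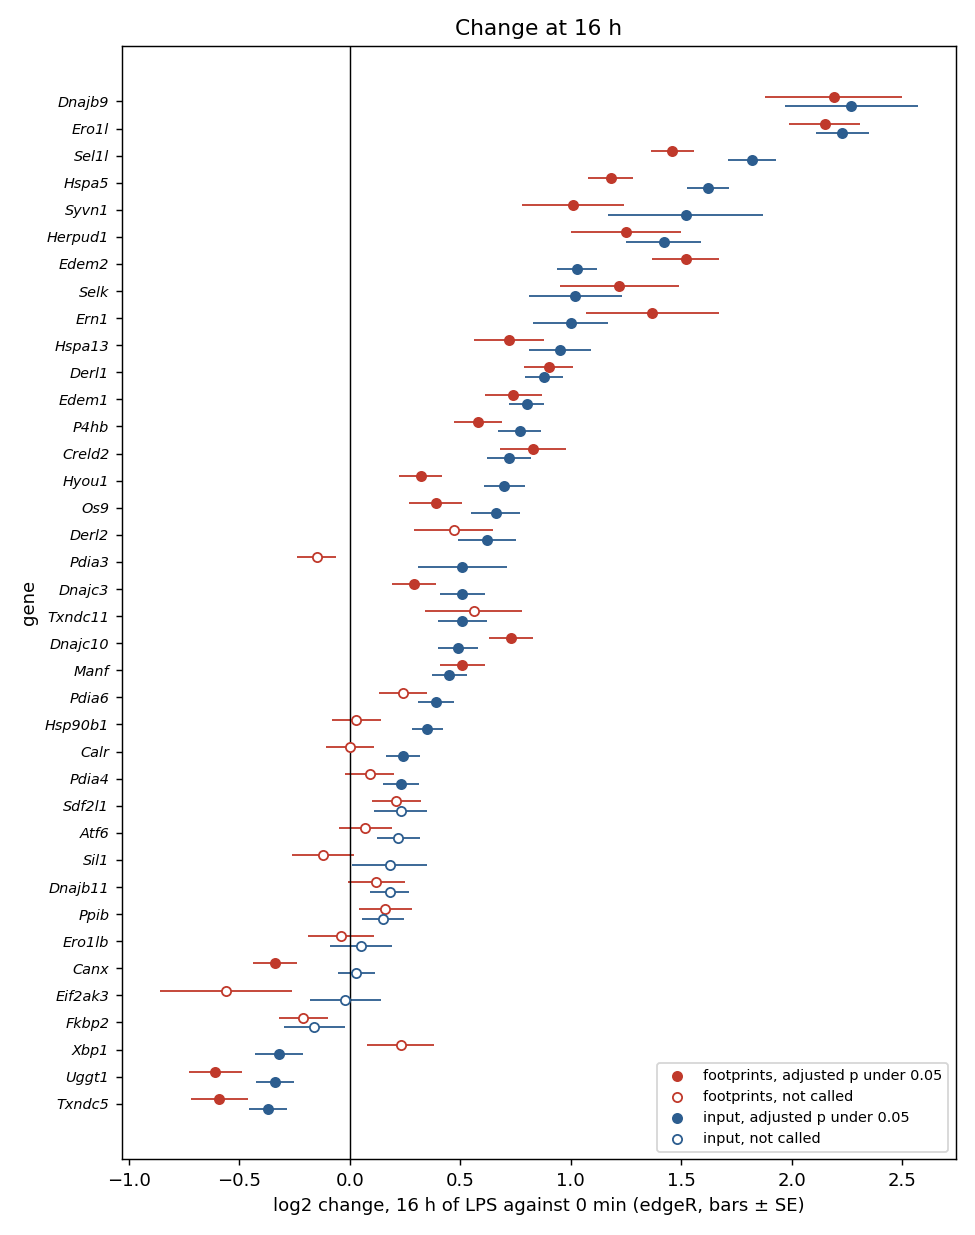
Log2 change at 16 h of LPS against 0 min (x axis, edgeR fit, bars ± SE) for 38 genes in order of the input change, with footprints in red and input in blue; filled points passed an adjusted p of 0.05. Dnajb9 and Ero1l lie above 2 in both materials, and Uggt1 and Txndc5 lie below 0 in both.

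The members together took a larger part of the counts at 16 h. They held 2.06% of footprint counts at 0 min, 1.76% to 2.03% from 15 to 90 min and 2.36% at 16 h. In input they held 1.38% at 0 min, 1.39% to 1.48% from 15 to 90 min and 1.91% at 16 h. Hspa5 alone held 0.587% of footprint counts at 16 h, against 0.291% at 0 min, and 0.438% of input counts at 16 h, against 0.167% at 0 min. In footprints Hspa5 made up about all of the rise, and the other members together held about the same part at both times. In input the other members together held a larger part at 16 h as well. In a culture measured in bulk, fewer cells that express a gene and less RNA per cell cannot be told apart.

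Of the 4 transducers, Eif2ak3 and Xbp1 fell early, Ern1 rose by 16 h, and Atf6 passed none of the 6 tests of footprints and input. Levels are counts scaled by TMM to a common library size (CPM), scaled within each material, in the order 0, 15, 30, 45, 60, 75 and 90 min and 16 h. Footprints on Eif2ak3, which encodes the kinase PERK, were 13.8, 10.2, 9.89, 11.7, 8.68, 4.87 and 3.78 CPM up to 90 min and 8.38 CPM at 16 h. Its input was 41.5, 43.3, 43.9, 35.2, 30.3, 18.2 and 16.9 CPM up to 90 min and 41.9 CPM at 16 h. Input held its level to 30 min and was lowest at 90 min, and footprints were lowest at 90 min too, on 23 counts. The early change was -1.67 ± 0.29 (adjusted p = 0.0045) in footprints and -1.49 ± 0.15 (adjusted p = 0.00012) in input, and the footprint call was lost without the 90 min library (-1.60, adjusted p = 0.063). At 90 min footprints stood at 0.273-fold (95% counting interval 0.166 to 0.432) of 0 min and input at 0.407-fold (95% counting interval 0.324 to 0.509). At 16 h input was back at the 0 min level (-0.02 ± 0.16, adjusted p = 0.93), and footprints stood at -0.56 ± 0.30 (adjusted p = 0.14), which did not pass. Against 90 min, 16 h was higher by 1.11 ± 0.36 (adjusted p = 0.023) in footprints and 1.47 ± 0.18 (adjusted p = 4.7e-05) in input; 5 of 13 alternatives ended the footprint call, with adjusted p up to 0.16.

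Xbp1 encodes the transcription factor whose mRNA IRE1 splices, and counts per gene do not separate its spliced and unspliced forms. Its footprints were 114, 97.3, 83.5, 94.0, 99.7, 80.7 and 78.0 CPM up to 90 min and 126 CPM at 16 h. Its input was 222, 216, 182, 191, 184, 149 and 129.9 CPM up to 90 min and 175 CPM at 16 h. Input declined to its lowest value at 90 min, and at 16 h footprints exceeded every earlier value while input lay between its 60 and 75 min values. The early change was -0.41 ± 0.13 (adjusted p = 0.1) in footprints and -0.72 ± 0.10 (adjusted p = 0.00078) in input, and only input passed; footprints passed too without the 30 min (-0.47, adjusted p = 0.022) or the 60 min library (-0.47, adjusted p = 0.037) and with total counts (-0.67, adjusted p = 0.0089). At 16 h against 0 min footprints stood at 0.23 ± 0.15 (adjusted p = 0.22) and input at -0.32 ± 0.11 (adjusted p = 0.029). The input call was lost without the 0 min library (-0.24, adjusted p = 0.3), without the 15 min library (0.054), with DESeq2 (0.055) and in root time (0.056). Against 90 min Xbp1 rose by 0.65 ± 0.15 (adjusted p = 0.0044) in footprints and by 0.40 ± 0.11 (adjusted p = 0.011) in input. Neither call held without the 90 min library (adjusted p = 0.14 and 0.22).

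Ern1 encodes IRE1, a kinase and nuclease of the ER membrane. Footprints on Ern1 were few, at 4.75, 5.66, 3.84, 6.14, 4.65, 5.34 and 4.43 CPM up to 90 min and 12.5 CPM at 16 h, on 26 to 85 counts per library. Its input was 18.4, 17.8, 18.6, 15.7, 16.6, 18.8 and 14.3 CPM up to 90 min and 36.3 CPM at 16 h. The 16 h library was the highest of 8 in both materials, and the earlier libraries showed no trend that passed the test. At 16 h against 0 min Ern1 rose by 1.37 ± 0.30 (adjusted p = 0.0024) in footprints and by 1.00 ± 0.17 (adjusted p = 0.00056) in input; without the 0 min library the footprint rise was 1.31 (adjusted p = 0.078). Atf6 encodes the sensor that is cut to release a transcription factor. Its footprints were 89.1, 101, 87.6, 101, 100.0, 96.1 and 101 CPM up to 90 min and 96.0 CPM at 16 h. Its input was 119, 129.9, 123, 119, 122, 126 and 137 CPM up to 90 min and 144 CPM at 16 h. All values of a material lay close together, with changes at 16 h of 0.07 ± 0.12 (adjusted p = 0.65) in footprints and 0.22 ± 0.10 (adjusted p = 0.077) in input. The input change passed with a linear time term (0.26, adjusted p = 0.032) and without the 15 min library (0.27, adjusted p = 0.04).

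All 4 ATPase chaperones of the lumen rose in input by 16 h and 3 of the 4 in footprints, and Hspa5 alone of them passed the early test as fitted; input also passed with a linear time term for Hspa13 (0.40, adjusted p = 0.03) and Hsp90b1 (0.18, adjusted p = 0.031), and without the 30 min library for Hyou1 (0.27, adjusted p = 0.018) and Hsp90b1 (0.18, adjusted p = 0.029). At 16 h 25.9% of all tested genes rose in footprints and 28.6% in input. Hspa5 encodes BiP, the Hsp70 of the ER lumen that also holds the sensors inactive. Its footprints were 2647, 2947, 3163, 4136, 4584, 4413 and 4741 CPM up to 90 min and 5778 CPM at 16 h. Its input was 1602, 1746, 2129.9, 2660.5, 2859.7, 2823 and 2944 CPM up to 90 min and 4698 CPM at 16 h. Every later library lay above 0 min in both materials, and 16 h was the highest. The early rise was 0.90 ± 0.09 (adjusted p = 0.0001) in footprints and 0.95 ± 0.08 (adjusted p = 3.6e-05) in input. At 16 h against 0 min it was 1.18 ± 0.10 (adjusted p = 2.8e-06) in footprints and 1.62 ± 0.10 (adjusted p = 1.2e-07) in input, or 2.18-fold (95% counting interval 2.15 to 2.22) and 2.93-fold (95% counting interval 2.87 to 3.0) between single libraries. Against 90 min the rise was 0.28 ± 0.11 (adjusted p = 0.048) in footprints and 0.67 ± 0.10 (adjusted p = 0.00015) in input, and 9 of 13 alternatives ended the footprint call, with adjusted p up to 0.31 without the 90 min library.

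Hyou1 encodes a large chaperone that exchanges nucleotide on BiP. Its footprints were 664, 661, 631, 638, 690.4, 679 and 705 CPM up to 90 min and 829 CPM at 16 h. Its input was 539, 559, 631, 606, 585, 641 and 652 CPM up to 90 min and 883 CPM at 16 h. The 16 h value was the highest in both materials. The change at 16 h against 0 min was 0.32 ± 0.10 (adjusted p = 0.015) in footprints and 0.70 ± 0.09 (adjusted p = 6.6e-05) in input; the footprint call was lost without the 0 min library (0.33, adjusted p = 0.13) and with total counts (0.22, adjusted p = 0.069). Hspa13 encodes a microsomal ATPase of the Hsp70 family. Its footprints were 36.0, 38.0, 33.2, 32.5, 43.7, 44.3 and 44.3 CPM up to 90 min and 59.7 CPM at 16 h. Its input was 29.4, 30.2, 29.1, 33.6, 37.9, 35.8 and 37.1 CPM up to 90 min and 55.2 CPM at 16 h. Here too 16 h was the highest of 8 libraries, with changes of 0.72 ± 0.16 (adjusted p = 0.0031) in footprints and 0.95 ± 0.14 (adjusted p = 0.00013) in input; without the 0 min library the footprint change was 0.70 (adjusted p = 0.073). Hsp90b1, the Hsp90 of the lumen, rose by 0.35 ± 0.07 (adjusted p = 0.0013) in input at 16 h (0.19, adjusted p = 0.025, with total counts) and stood at 0.03 ± 0.11 (adjusted p = 0.83) in footprints.

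**Figure D3:**
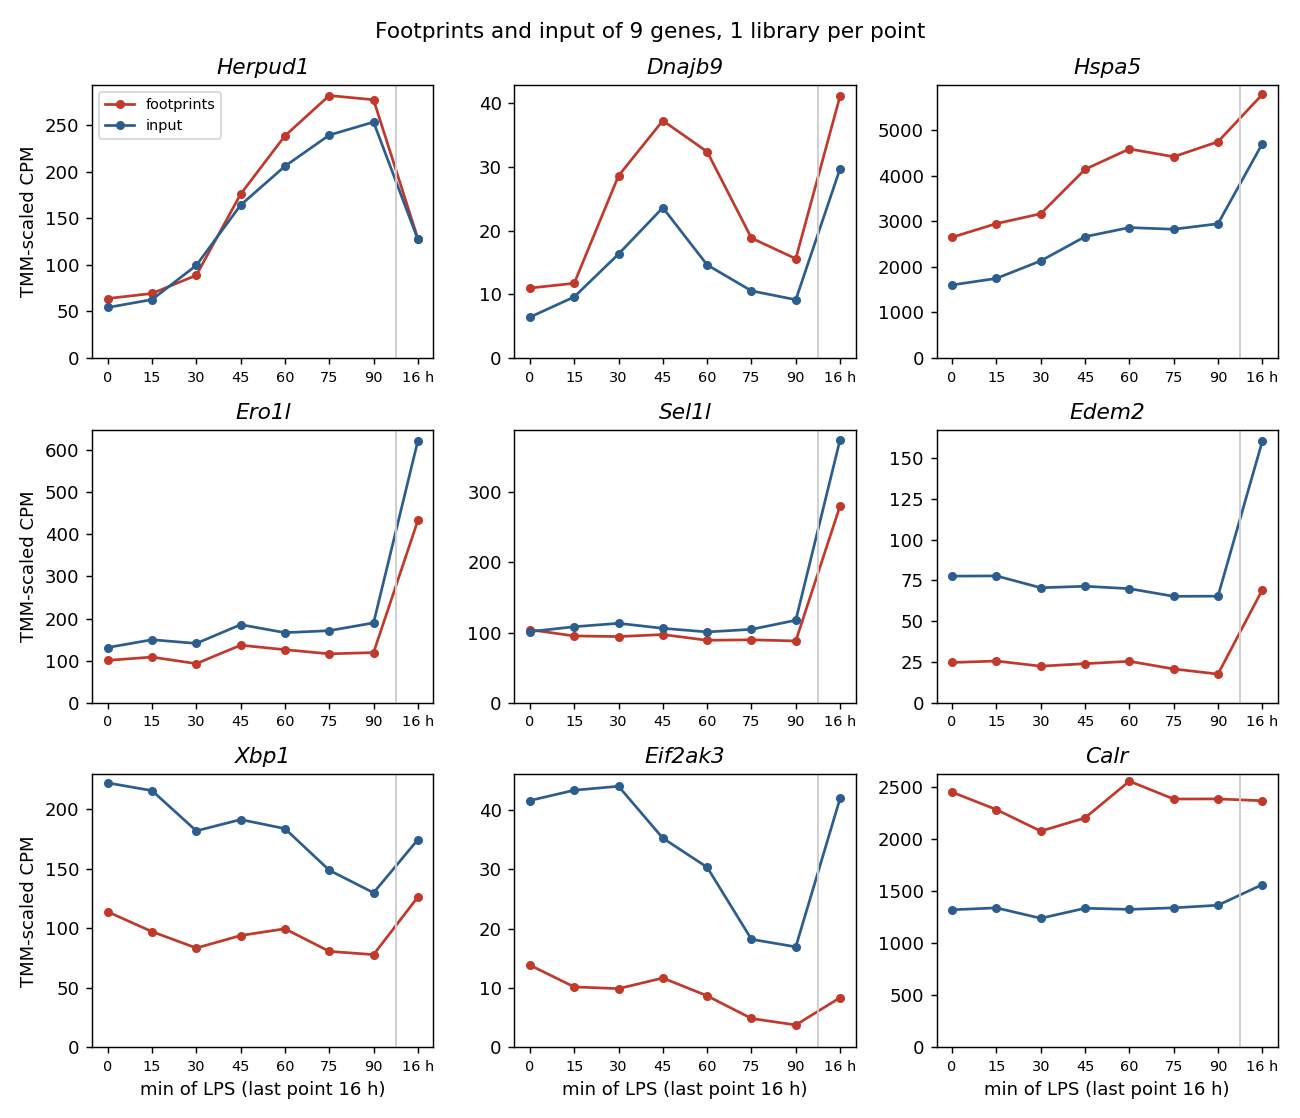
TMM-scaled CPM of 9 genes (y axis, from 0) against minutes of LPS with the 16 h library last (x axis, not to scale after 90 min), footprints in red and input in blue; each point is 1 library. The materials were scaled separately, so shapes and not heights are to be compared between lines. Herpud1 climbs to 75 to 90 min, Dnajb9 peaks at 45 min, Ero1l, Sel1l and Edem2 are high at 16 h, Xbp1 and Eif2ak3 decline to 90 min, and Calr shows no early trend.

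Among 6 genes of the lectin chaperones and glycoprotein quality control, 3 rose and 2 fell in footprints at 16 h, against 25.9% and 24.2% of all tested genes. In input 4 of the 6 rose and 1 fell, against 28.6% and 27% of all tested genes. Edem2, whose product trims mannose from misfolded glycoproteins and so marks them for degradation, moved the furthest. Its footprints were 24.7, 25.6, 22.4, 23.9, 25.4, 20.7 and 17.6 CPM up to 90 min and 69.2 CPM at 16 h. Its input was 77.7, 77.8, 70.5, 71.4, 70.0, 65.3 and 65.4 CPM up to 90 min and 160.3 CPM at 16 h. Both materials were lowest at 75 or 90 min and highest at 16 h. The change at 16 h was 1.52 ± 0.15 (adjusted p = 7.8e-06) in footprints and 1.03 ± 0.09 (adjusted p = 2.7e-06) in input against 0 min, and 1.92 ± 0.16 (adjusted p = 2.2e-06) in footprints and 1.30 ± 0.09 (adjusted p = 7.2e-07) in input against 90 min. Edem1 acts at a like step. Its footprints were 94.4, 83.4, 72.0, 86.2, 85.7, 86.0 and 86.4 CPM up to 90 min and 151 CPM at 16 h. Its input was 354, 368, 369.5, 357, 371, 399.6 and 418 CPM up to 90 min and 629 CPM at 16 h. The 16 h value stood above all others, with changes against 0 min of 0.74 ± 0.13 (adjusted p = 0.00059) in footprints and 0.80 ± 0.08 (adjusted p = 8.4e-06) in input.

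Os9 encodes a lectin that hands trimmed glycoproteins to the degradation complex. Its footprints were 78.4, 88.4, 81.4, 80.1, 77.8, 83.7 and 79.1 CPM up to 90 min and 107 CPM at 16 h. Its input was 77.2, 68.9, 67.2, 76.0, 71.2, 71.1 and 67.5 CPM up to 90 min and 117 CPM at 16 h. The 16 h library was the highest in both, with changes against 0 min of 0.39 ± 0.12 (adjusted p = 0.016) in footprints and 0.66 ± 0.11 (adjusted p = 0.00042) in input. The footprint call was lost without the 0 min library (0.20, adjusted p = 0.42), with DESeq2 (0.38, adjusted p = 0.066) and with total counts (0.29, adjusted p = 0.06). Uggt1, the sensor that puts glucose back on unfolded glycoproteins, fell by 0.61 ± 0.12 (adjusted p = 0.0012) in footprints and by 0.34 ± 0.09 (adjusted p = 0.0054) in input. Canx, the membrane-bound lectin chaperone calnexin, stood at -0.34 ± 0.10 (adjusted p = 0.015) in footprints, a fall that was lost without the 0 min library (-0.27, adjusted p = 0.2), and at 0.03 ± 0.08 (adjusted p = 0.78) in input. Calr, its soluble partner calreticulin, stood at 0.00 ± 0.11 (adjusted p = 1) in footprints and at 0.24 ± 0.08 (adjusted p = 0.022) in input. That input rise was lost without the 0 min (adjusted p = 0.17) or the 90 min library (0.06) and with total counts (0.08, adjusted p = 0.39).

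Of 8 disulfide isomerases and oxidases, 2 rose and 1 fell in footprints at 16 h, against 25.9% and 24.2% of all tested genes. The rises in footprints were thus near the share of all genes. In input 6 of the 8 rose and 1 fell, against 28.6% and 27% of all tested genes. Ero1l encodes the oxidase that recharges protein disulfide isomerase. Its footprints were 101, 108, 92.8, 137, 126, 116 and 119 CPM up to 90 min and 433 CPM at 16 h. Its input was 131, 149.7, 141, 186, 166, 171 and 189.7 CPM up to 90 min and 622 CPM at 16 h. The 16 h library lay far above the other 7 in both materials, at 4.30-fold (95% counting interval 3.97 to 4.67) of 0 min in footprints and 4.74-fold (95% counting interval 4.41 to 5.10) in input. The fitted change at 16 h was 2.15 ± 0.16 (adjusted p = 8.6e-07) in footprints and 2.23 ± 0.12 (adjusted p = 8e-08) in input. The early change was 0.32 ± 0.14 (adjusted p = 0.27) in footprints and 0.48 ± 0.11 (adjusted p = 0.021) in input. The input call was lost without the 0 min (0.44, adjusted p = 0.15) or the 90 min library (0.39, adjusted p = 0.079) and with total counts (0.34, adjusted p = 0.068), and footprints passed without the 30 min library (0.37, adjusted p = 0.044). Its paralogue Ero1lb stood at -0.04 ± 0.15 (adjusted p = 0.84) in footprints and 0.05 ± 0.14 (adjusted p = 0.81) in input.

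P4hb encodes the founding protein disulfide isomerase. Its footprints were 1243, 1201, 1129.7, 1275, 1336, 1246 and 1184 CPM up to 90 min and 1792 CPM at 16 h. Its input was 1103, 1090.3, 975, 1125, 1078, 1008 and 978 CPM up to 90 min and 1842 CPM at 16 h. Neither passed the early test, though input did without the 30 min library (-0.17, adjusted p = 0.043), and both were highest at 16 h, with changes of 0.58 ± 0.11 (adjusted p = 0.00094) in footprints and 0.77 ± 0.10 (adjusted p = 5.2e-05) in input. Txndc5, an isomerase with thioredoxin domains, fell. Its footprints were 159.9, 135, 122, 136, 134, 135 and 128 CPM up to 90 min and 101 CPM at 16 h. Its input was 209.8, 194, 190.2, 192, 196, 188 and 192 CPM up to 90 min and 159 CPM at 16 h. The 16 h library was the lowest of 8 in both materials, with changes of -0.59 ± 0.13 (adjusted p = 0.0022) in footprints and -0.37 ± 0.09 (adjusted p = 0.0035) in input, and neither call held without the 0 min library (-0.34, adjusted p = 0.16, and -0.28, adjusted p = 0.11).

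Against 0 min the other isomerases passed the 16 h test in input and not in footprints. Pdia6 stood at 0.24 ± 0.11 (adjusted p = 0.082) in footprints, which passed with a linear time term (0.28, adjusted p = 0.049), and 0.39 ± 0.08 (adjusted p = 0.0019) in input (0.23, adjusted p = 0.026, with total counts). Txndc11, a membrane-bound thioredoxin-domain protein, stood at 0.56 ± 0.22 (adjusted p = 0.05) in footprints, missing the threshold before rounding and passing without the 30 min (0.55, adjusted p = 0.043) or 60 min library (0.49, adjusted p = 0.04), and 0.51 ± 0.11 (adjusted p = 0.0025) in input, a call lost without the 0 min library (0.43, adjusted p = 0.085). Pdia4 stood at 0.09 ± 0.11 (adjusted p = 0.49) in footprints and 0.23 ± 0.08 (adjusted p = 0.035) in input, and 9 of 13 alternatives ended that call, with adjusted p up to 0.51. Against 90 min footprints passed for Pdia4 (0.28 ± 0.11, adjusted p = 0.048) and Txndc11 (0.57 ± 0.22, adjusted p = 0.05, under the threshold before rounding), calls that 6 and 5 of 13 alternatives kept. Pdia3, the isomerase that works with calnexin and calreticulin, stood at -0.15 ± 0.09 (adjusted p = 0.19) in footprints (-0.25, adjusted p = 0.034, with total counts) and 0.51 ± 0.20 (adjusted p = 0.046) in input. The input call of Pdia3 was lost in 6 of 13 alternatives, with 0.23 and adjusted p = 0.58 without the 0 min library. Input of Pdia3 was 495, 569, 814, 608, 614, 699 and 722 CPM up to 90 min and 746 CPM at 16 h, highest at 30 min, and without that library the early input change passed (0.50, adjusted p = 9e-04).

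Of 6 co-chaperones and exchange factors, 3 rose in each material at 16 h and none fell. Of all tested genes 25.9% rose and 24.2% fell in footprints, and 28.6% and 27% in input. Dnajb9 encodes ERdj4, a J-domain partner of BiP. Its footprints were 11.0, 11.7, 28.6, 37.3, 32.4, 18.8 and 15.6 CPM up to 90 min and 41.1 CPM at 16 h. Its input was 6.42, 9.60, 16.3, 23.6, 14.6, 10.6 and 9.16 CPM up to 90 min and 29.7 CPM at 16 h. Both materials peaked at 45 min, fell back by 90 min and were highest at 16 h. At 45 min footprints stood at 3.39-fold (95% counting interval 2.63 to 4.42) of 0 min and input at 3.68-fold (95% counting interval 2.63 to 5.24), on 249 and 159 counts. The early change was 1.85 ± 0.29 (adjusted p = 0.0019) in footprints and 1.61 ± 0.29 (adjusted p = 0.0035) in input. A curve linear in time, which cannot follow a peak, gave 0.60 (adjusted p = 0.58) and 0.26 (adjusted p = 0.79), and a curve in root time gave 1.57 (adjusted p = 0.12) and 1.60 (adjusted p = 0.059), each pair footprints first. At 16 h the change was 2.19 ± 0.31 (adjusted p = 0.00012) in footprints and 2.27 ± 0.30 (adjusted p = 6.8e-05) in input, against 1.20 (adjusted p = 0.12) and 1.33 (adjusted p = 0.06) with the linear term.

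Dnajc10 encodes ERdj5, a reductase with a J domain. Its footprints were 99.6, 96.6, 86.3, 87.9, 89.8, 87.5 and 92.1 CPM up to 90 min and 166 CPM at 16 h. Its input was 237, 237, 217, 232, 239, 219.8 and 224 CPM up to 90 min and 331 CPM at 16 h. The 16 h value was the highest in both, with changes of 0.73 ± 0.10 (adjusted p = 8.7e-05) in footprints and 0.49 ± 0.09 (adjusted p = 0.00082) in input. Dnajc3 encodes P58IPK, a lumenal J protein also known as a PERK inhibitor. Its footprints were 127, 120.3, 112, 121, 113, 112 and 114 CPM up to 90 min and 153 CPM at 16 h. Its input was 137, 136, 133, 138, 146, 147 and 128 CPM up to 90 min and 190.2 CPM at 16 h. At 16 h the change was 0.29 ± 0.10 (adjusted p = 0.03) in footprints and 0.51 ± 0.10 (adjusted p = 0.0013) in input, and 6 of 13 alternatives ended the footprint call, among them leaving out the 0 min library (0.35, adjusted p = 0.13). The other 3 passed in neither material at 16 h against 0 min. Dnajb11, a J protein of BiP, stood at 0.12 ± 0.13 (adjusted p = 0.49) in footprints and 0.18 ± 0.09 (adjusted p = 0.097) in input, Sdf2l1, which keeps J proteins and clients in solution, at 0.21 ± 0.11 (adjusted p = 0.15) and 0.23 ± 0.12 (adjusted p = 0.14), and the exchange factor Sil1 at -0.12 ± 0.14 (adjusted p = 0.51) and 0.18 ± 0.17 (adjusted p = 0.39). Sdf2l1 footprints rose against 90 min (0.40 ± 0.12, adjusted p = 0.013), and leaving out the 90 min library ended this call (0.28, adjusted p = 0.26). The prolyl isomerases passed neither test of change in either material: at 16 h Fkbp2 stood at -0.21 ± 0.11 (adjusted p = 0.14) in footprints (-0.31, adjusted p = 0.04, with total counts) and -0.16 ± 0.14 (adjusted p = 0.34) in input, and Ppib, cyclophilin B, at 0.16 ± 0.12 (adjusted p = 0.3) and 0.15 ± 0.10 (adjusted p = 0.2).

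Against 0 min the degradation machinery had at 16 h the largest median changes of the role groups, 1.12 in footprints, with 5 of 6 members up, and 1.22 in input, with 6 of 6 up. Against 90 min its medians were 0.86 in footprints and 0.72 in input, below those of the stress transducers (0.88 and 0.81). In that comparison 5 of its 6 members rose and 1 fell in footprints, and 3 rose and 1 fell in input. Of all tested genes 25.6% rose and 25.0% fell in footprints against 90 min, and 26.6% and 25.8% in input. Of all tested genes 25.9% rose in footprints and 28.6% in input at 16 h against 0 min. Herpud1, which gathers the retrotranslocation complex at the membrane, was the strongest early riser of the 38. Its footprints were 63.9, 69.3, 88.8, 176, 238, 282 and 277 CPM up to 90 min and 128 CPM at 16 h. Its input was 54.2, 62.7, 99.4, 164, 206, 239 and 253 CPM up to 90 min and 127 CPM at 16 h. Levels climbed from 30 min to a plateau at 75 and 90 min and at 16 h lay between the 30 and 45 min values. At 90 min footprints stood at 4.34-fold (95% counting interval 3.91 to 4.81) of 0 min and input at 4.67-fold (95% counting interval 4.17 to 5.23). The early change was 2.53 ± 0.22 (adjusted p = 3.8e-05) in footprints and 2.48 ± 0.15 (adjusted p = 3.1e-06) in input. At 16 h it was 1.25 ± 0.25 (adjusted p = 0.0015) in footprints and 1.42 ± 0.17 (adjusted p = 3.5e-05) in input against 0 min (2.01 in footprints without the 0 min library), and -1.28 ± 0.25 (adjusted p = 0.0014) and -1.06 ± 0.17 (adjusted p = 0.00029) against 90 min.

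Sel1l encodes the adaptor of the ubiquitin ligase complex. Its footprints were 104, 95.2, 94.3, 97.2, 89.0, 89.7 and 88.0 CPM up to 90 min and 281 CPM at 16 h. Its input was 101, 108, 113, 106, 101, 105 and 118 CPM up to 90 min and 375 CPM at 16 h. All libraries up to 90 min lay close together and the 16 h library far above them. The change at 16 h was 1.46 ± 0.10 (adjusted p = 2.7e-07) in footprints and 1.82 ± 0.11 (adjusted p = 1.1e-07) in input. Syvn1 encodes HRD1, the ligase itself. Its footprints were 21.2, 24.6, 17.3, 27.7, 25.1, 25.8 and 22.5 CPM up to 90 min and 42.0 CPM at 16 h. Its input was 9.56, 9.31, 20.8, 16.0, 12.5, 17.1 and 17.1 CPM up to 90 min and 27.8 CPM at 16 h, on 65 to 174 counts. The 16 h value was the highest in each material, and the 30 min value was the second highest in input and the lowest in footprints. The change was 1.01 ± 0.23 (adjusted p = 0.0032) in footprints and 1.52 ± 0.35 (adjusted p = 0.0034) in input; without the 0 min library it was 1.07 (adjusted p = 0.054) in footprints and 1.48 (adjusted p = 0.071) in input. Derl1, a channel protein of retrotranslocation, rose by 0.90 ± 0.11 (adjusted p = 5.2e-05) in footprints and by 0.88 ± 0.09 (adjusted p = 6.4e-06) in input. Derl2, of the same family, stood at 0.47 ± 0.18 (adjusted p = 0.052) in footprints and 0.62 ± 0.13 (adjusted p = 0.0019) in input, and the footprint change passed without the 15 min (0.54, adjusted p = 0.045) or the 30 min library (0.45, adjusted p = 0.018) and with a linear time term (0.50, adjusted p = 0.032). The selenoprotein Selk, a partner of the complex, rose by 1.22 ± 0.27 (adjusted p = 0.0027) in footprints and by 1.02 ± 0.21 (adjusted p = 0.0018) in input. Selk footprints were 26.9 CPM at 0 min and 14.6 CPM at 15 min. Without the 0 min library, whose level is then extrapolated, they rose by 2.35 (adjusted p = 8.8e-05) at 16 h. They then passed the early test too (1.45, adjusted p = 0.0069). Vimp, the gene listed as Sels and a partner of the same complex, stood at 1.13 ± 0.17 (adjusted p = 0.00024) and 1.15 ± 0.14 (adjusted p = 2.8e-05).

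Both secreted or lumenal stress factors rose by 16 h in both materials and passed no early test. At 16 h 25.9% of all tested genes rose in footprints and 28.6% in input. Creld2 encodes a chaperone-like protein that is secreted under ER stress. Its footprints were 76.2, 76.6, 65.2, 72.6, 87.0, 80.7 and 76.3 CPM up to 90 min and 132 CPM at 16 h. Its input was 129, 116, 121, 124, 136, 133 and 127 CPM up to 90 min and 203 CPM at 16 h. Manf encodes a lumenal protein that can be secreted and acts as a survival factor. Its footprints were 266, 261, 248, 259.8, 263, 257 and 260.1 CPM up to 90 min and 377 CPM at 16 h. Its input was 247, 256, 256, 249.5, 265, 261 and 259.9 CPM up to 90 min and 341 CPM at 16 h. For each gene and material the 16 h library was the highest. The change of Creld2 was 0.83 ± 0.15 (adjusted p = 0.00064) in footprints and 0.72 ± 0.10 (adjusted p = 0.00014) in input, and that of Manf 0.51 ± 0.10 (adjusted p = 0.0013) in footprints and 0.45 ± 0.08 (adjusted p = 0.00062) in input (0.29, adjusted p = 0.0094, with total counts).

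Members with an ERSE or ERSE-II in the promoter had lower median changes at 16 h than members without either. Against 0 min, 5 of 11 such members rose and 1 fell in footprints, with a median of 0.24, against 10 up and 2 down of 21 members without either, with a median of 0.47. In input 8 of 11 rose and none fell, with a median of 0.39, against 14 up and 3 down of 21, with a median of 0.51. Against 90 min 4 of 11 rose and 2 fell in footprints (median 0.10), against 16 up and 2 down of 21 (median 0.65), and 4 of 11 rose and 1 fell in input (median 0.19), against 14 up and 2 down of 21 (median 0.56). Over 0 to 90 min 2 of the 11 rose in each material, Hspa5 and Herpud1, and 0 fell. Among the 21 without either, 1 rose (Dnajb9) and 1 fell in footprints, and 2 rose (Dnajb9 and Ero1l) and 2 fell in input. The early medians with and without a motif were -0.04 and -0.17 in footprints, and 0.13 and -0.09 in input. Of all tested genes 25.9% rose and 24.2% fell at 16 h against 0 min in footprints, and 28.6% and 27% in input. Against 90 min 25.6% rose and 25% fell in footprints, and 26.6% and 25.8% in input. Over 0 to 90 min 12.2% rose and 8.3% fell in footprints, and 14.9% and 11.3% in input, so the early rises of 2 of 11 are near these shares. No test was made of these counts.

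No member changed in ribosome density, which is footprints per input set against the typical gene, by a margin that passed the test. Over 0 to 90 min edgeR called 0 of 38, against 1.11% of all tested genes higher and 0.136% lower, and 3 members had an unadjusted p under 0.05. At 16 h against 0 min it called 0 (all genes 0.304% higher and 0.0944% lower), with 5 under 0.05 unadjusted. Against 90 min it called 0 (all genes 0.451% and 0.923%), with 3 under 0.05 unadjusted. Of all 9529 tested genes 869, 999 and 958 had an unadjusted p under 0.05, in the same order. DESeq2 called 0 of 38 members in each of these tests. The 38 changes ran from -0.58 to 0.36 over 0 to 90 min and from -0.58 to 0.64 at 16 h against 0 min. With 4 residual degrees of freedom small changes are poorly bounded, and the standard error of the 16 h change was 0.15 for Hspa5 (-0.36) and 0.43 for Syvn1 (-0.44).

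The members nearest to a change in density were Xbp1, Edem2 and Pdia3. The log2 density of Xbp1 was -0.76, -0.94, -0.89, -0.81, -0.67, -0.68 and -0.54 up to 90 min and -0.19 at 16 h, highest in the 16 h library. Its change at 16 h was 0.64 ± 0.14 (adjusted p = 0.065); it passed with a linear time term (0.72, adjusted p = 0.015) and without the 30 min libraries (0.63, adjusted p = 0.0093). The log2 density of Edem2 was -1.45, -1.40, -1.42, -1.36, -1.25, -1.45 and -1.70 up to 90 min and -0.93 at 16 h. Against 90 min it stood at 0.70 ± 0.18 (adjusted p = 0.07) and passed without the 30 min libraries (0.72, adjusted p = 0.021) and with total counts (0.80, adjusted p = 0.035). For Pdia3 the log2 density was 2.41, 2.18, 1.54, 1.95, 2.02, 1.73 and 1.70 up to 90 min and 1.75 at 16 h, highest at 0 min and lowest at 30 min, when its input was highest. Without the 30 min libraries Pdia3 passed both over 0 to 90 min (-0.67, adjusted p = 0.00024) and at 16 h against 0 min (-0.62, adjusted p = 0.0034), against -0.58 ± 0.17 (adjusted p = 0.33) and -0.58 ± 0.21 (adjusted p = 0.31) with them.

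Density differed between members far more than it moved in time. Averaged over the 8 time points, 21 of 38 members lay above the typical gene and 13 below, against 43.7% and 41.5% of all tested genes, with a median of 0.26 (all genes 0.02) and a range of -1.92 to 1.91. With scaling by total counts 17 members lay above and 17 below. Under that scaling 3070 of all 9529 tested genes lay above and 4812 below, with a median of -0.19. The highest members included Pdia3, which stood at 1.91 ± 0.08 (adjusted p = 3.6e-13), Fkbp2 at 1.31 ± 0.05 (adjusted p = 9.3e-14), Calr at 1.01 ± 0.05 (adjusted p = 3.9e-12) and Hspa5 at 0.84 ± 0.06 (adjusted p = 2e-10). Dnajb9 stood at 0.94 ± 0.08 (adjusted p = 7.6e-09) and Syvn1 at 0.90 ± 0.13 (adjusted p = 3.2e-06). All 4 ATPase chaperones and both prolyl isomerases were above the typical gene. All 4 transducers were below it, with Eif2ak3 at -1.71 ± 0.09 (adjusted p = 3.9e-12), Ern1 at -1.51 ± 0.10 (adjusted p = 1.4e-10), Xbp1 at -0.69 ± 0.07 (adjusted p = 2.1e-08) and Atf6 at -0.18 ± 0.04 (adjusted p = 0.00063) (-0.40 with total counts). The lowest members were Edem1 at -1.92 ± 0.05 (adjusted p = 5.5e-16) and Txndc11 at -1.77 ± 0.06 (adjusted p = 2.1e-14), with Edem2 at -1.34 ± 0.07 (adjusted p = 3.5e-12) and Dnajc10 at -1.06 ± 0.05 (adjusted p = 1e-12). The sources used here do not say over which features reads were counted, so untranslated sequence may enter input counts. Across the 38 members the level and the coding share of the transcript had a Pearson's r of -0.05 and a Spearman's rho of 0.11, a description over genes of the same 16 libraries.

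**Figure D4:**
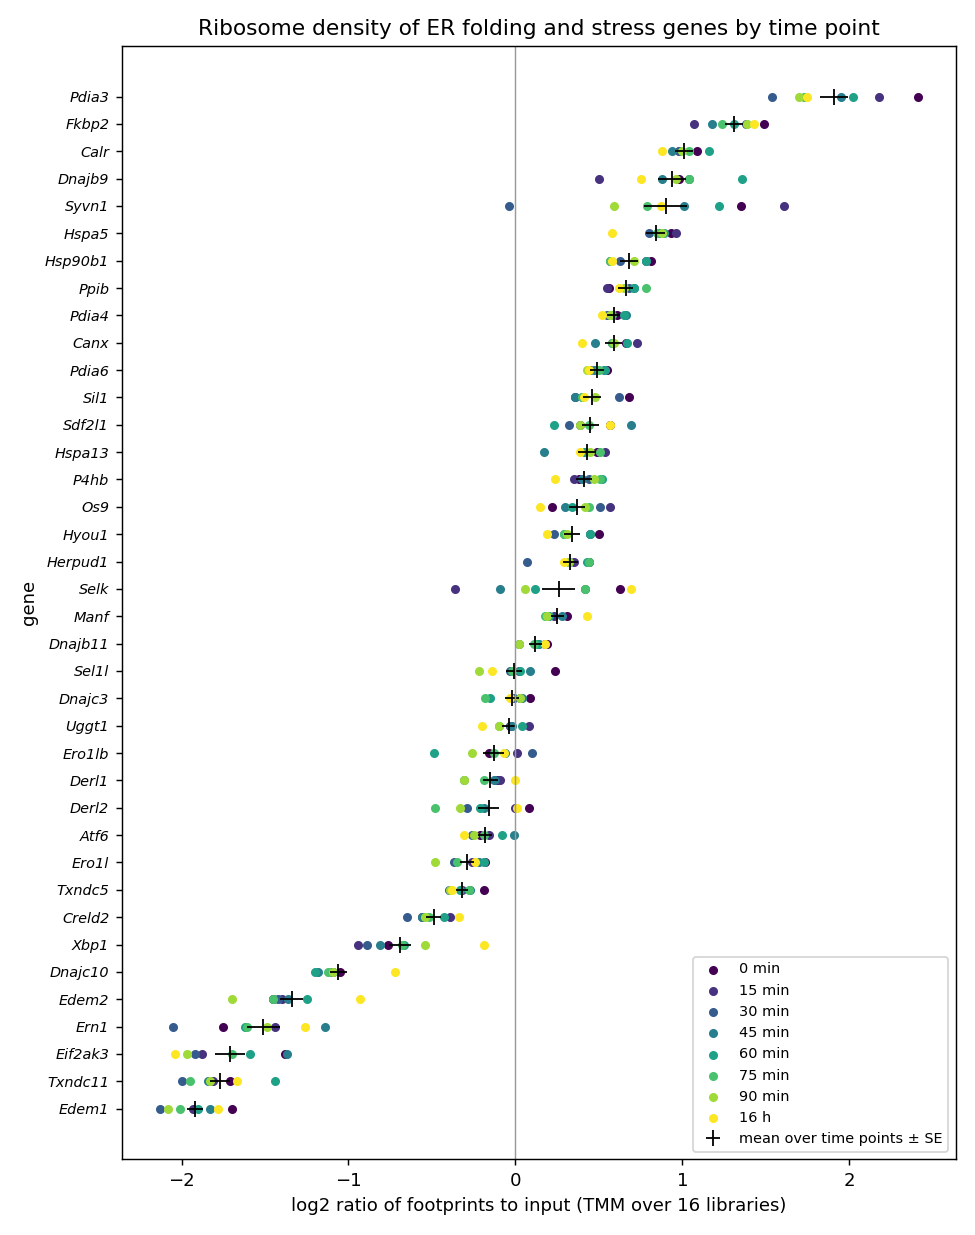
Log2 ratio of footprints to input (x axis, TMM over 16 libraries, relative to the typical gene) for 38 genes in order of their mean; each point is 1 time point by colour, and the cross is the mean over time points ± SE. Pdia3 is at the top with 1.91, Edem1 at the bottom with -1.92, and the yellow 16 h points of Xbp1, Dnajc10 and Edem2 lie to the right of their earlier ones.

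In untreated cells the members differed widely from each other in footprints and input per length. Per kilobase of coding sequence (longest coding transcript of GENCODE M21), footprints at 0 min were highest on Calr at 1967 CPM, Pdia3 at 1512, Hsp90b1 at 1359, Hspa5 at 1347 and Canx at 1007. They were lowest on Ern1 at 1.62, Eif2ak3 at 4.14 and Txndc11 at 6.20. Per kilobase of transcript, input at 0 min was highest for Hsp90b1 at 757 CPM, Calr at 606, Ppib at 469.8 and Hspa5 at 436, and lowest for Dnajb9 at 2.61, Ern1 at 2.65 and Syvn1 at 2.76. The sensors Ern1 and Eif2ak3 had the lowest footprint levels per length, and abundant chaperones of the lumen the highest. Each value is 1 library with no replicate.

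Other genes of the pathway were counted in lists drawn up with earlier results of these data known. Their counts at 16 h against 0 min stand beside 25.9% of all tested genes higher and 24.2% lower in footprints, and 28.6% higher and 27.0% lower in input. Of 22 further genes of ER-associated degradation, 6 rose and 1 fell in footprints at 16 h (median 0.29) and 12 rose and 2 fell in input (median 0.36). The ubiquitin-binding adaptor Faf2 (1.07 ± 0.13, adjusted p = 3.4e-05 in footprints and 1.14 ± 0.14, adjusted p = 5.1e-05 in input) and the p97 cofactor Ubxn6 (1.07 and 0.89) rose, and the J protein Dnajb14 fell (-1.03 and -1.15). Of 13 further disulfide isomerases and redox enzymes, 4 rose and 2 fell in footprints and 6 rose and 1 fell in input, with the sulfhydryl oxidase Qsox1 at 1.58 ± 0.15 (adjusted p = 4e-06) and 1.82 ± 0.12 (adjusted p = 2.8e-07) and the chaperone Erp29 at -1.16 ± 0.13 (adjusted p = 2e-05) and -1.50 ± 0.10 (adjusted p = 4.2e-07). Of 17 tested genes of N-glycosylation, 7 rose and 4 fell in footprints and 5 rose and 3 fell in input. Of 2 tested further prolyl isomerases 1, Fkbp11, rose in each material, and without the 0 min library its input change was 0.68 (adjusted p = 0.057). Of 17 further stress regulators, 8 rose and 1 fell in footprints and 9 rose and 2 fell in input, with the calcium-binding Nucb2 at 1.40 ± 0.12 (adjusted p = 2.1e-06) and 1.66 ± 0.10 (adjusted p = 2.2e-07). Medians over all tested genes at 16 h were 0.00 in footprints and 0.01 in input.

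A list around eIF2alpha and ATF4 held the other eIF2alpha kinases, eIF2alpha itself and genes that ATF4 is known to act with or on. Of its 12 tested genes, 7 rose and none fell over 0 to 90 min in each material. At 16 h 9 rose and 2, eIF2alpha's gene Eif2s1 and the kinase gene Eif2ak4, fell in each. The medians at 16 h were 2.53 in footprints and 1.78 in input. Over 0 to 90 min 12.2% of all tested genes rose in footprints and 14.9% in input, and at 16 h 25.9% and 28.6%. The transcription factor Atf3 stood at 4.61 ± 0.59 (adjusted p = 5.8e-05) in footprints and 4.69 ± 0.62 (adjusted p = 6.9e-05) in input at 16 h, Ppp1r15a, the phosphatase subunit that restores translation, at 4.67 ± 0.83 (adjusted p = 0.00064) and 3.42 ± 1.10 (adjusted p = 0.017), and the glutathione-degrading Chac1 at 3.21 ± 0.24 (adjusted p = 7.1e-07) and 3.26 ± 0.23 (adjusted p = 5e-07). The input change of Ppp1r15a did not pass without the 0 min library (3.59, adjusted p = 0.15). With a linear time term Ppp1r15a stood at 1.13 (adjusted p = 0.53) in footprints and -0.70 (adjusted p = 0.8) in input, and with root time at 9.76 (adjusted p = 0.0022) in footprints.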

How the data were processed

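Ribosome footprints and cytoplasmic input RNA of RAW264.7 cells were measured in 16 libraries, 1 per material and time point. The authors deposited whole-number counts per gene and, per the file headers, a DESeq2-normalised signal, which is those counts over 1 size factor per library and was used only to check this. The submitters' processing notes name Bowtie 0.12.8, DESeq2 1.18.1 and mm10. The sources used here do not give the counted features, strand or treatment of multiple matches. Library totals are equal, so original depth is unknown. A gene was kept when 4 or more libraries of each material held 10 or more of its counts. Counts were scaled by TMM, and edgeR 4.0.16 in R 4.3.3 gave quasi-likelihood tests, whose p-values were adjusted over the whole table by Benjamini-Hochberg and called at 0.05. Input and footprints each had linear and quadratic terms over 0 to 90 min and a separate 16 h term; density came from both materials together, with a term for each lysate and one for how material changes each time term. Input and footprints of a time point share a lysate, per the labels' protocols, which is the reason for the block. The time-course and density-change fits had 4 residual degrees of freedom, and with 1 library per group p-values measure scatter about a smooth curve, which may be technical. The procedure was tested on simulated data. Ratios between single libraries carry 95% intervals from counts that cover counting error only. Alternatives, including DESeq2 1.42.0, are in the closing section. All members were named, with values in every library for Hspa5, the transducers and up to 3 called members of largest change per role group; other lists were given as counts with at most 3 genes named. Members, lists and tests were chosen with earlier results of these data known. Promoters came from RefSeq (GRCm38.p6) and lengths from GENCODE M21.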

Additional observations from a re-analysis of the deposited data

How the results depend on the processing

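Alternatives were DESeq2 size factors, total counts, no count filter, DESeq2 as the test, a linear term or the square root of time, leaving out each time point in turn and, for density, no replicate block. Counts of called members stayed within 1.5 times of those reported except as follows. With total counts 17 members passed in footprints over 0 to 90 min and 1 in density at 16 h against 90 min. With a linear time term 1 member passed in density at 16 h against 0 min. Of all 9529 tested genes 3348, 181 and 51 passed under these settings, in the same order. Without the 0 or 90 min library its fitted value was extrapolated from the other libraries up to 90 min. Leaving out 1 time point gave 3 to 7 calls in footprints and 5 to 13 in input over 0 to 90 min. It gave 14 to 24 in footprints at 16 h against 0 min, and 12 to 27 in footprints and 14 to 30 in input at 16 h against 90 min. In density it gave 0 to 1 over 0 to 90 min, 0 to 2 at 16 h against 0 min and 0 to 1 at 16 h against 90 min. Over all 9529 tested genes it gave 1285 to 2278 calls in footprints and 1541 to 2755 in input over 0 to 90 min. At 16 h it gave 3015 to 5032 in footprints against 0 min. Against 90 min it gave 3267 to 5064 in footprints and 3653 to 5232 in input. For density the ranges over all tested genes were 0 to 308, 6 to 122 and 16 to 262, in the order above. Among single members 1 called value changed sign: the mean density of Dnajb11 was -0.10 with total counts (adjusted p = 0.06). Outside the members, the 16 h change of Ppp1r15a input was -0.70 with a linear time term. Some values that had not passed also changed sign. Without the filter on low counts the mean density was 0.01 for Dnajc3 and 0.03 for Sel1l, and leaving out 1 time point gave -0.03 to 0.00 for Dnajc3 and -0.02 to 0.02 for Sel1l. The same step gave early changes of -0.17 to 0.07 for P4hb input (the lowest, without 30 min, passed), -0.22 to 0.09 for Sdf2l1 footprints and -0.28 to 0.06 for Txndc5 footprints. The early change of Selk footprints was -0.46 in root time and 1.45 (adjusted p = 0.0069) without the 0 min library. Without the replicate block 28 single calls kept their side of the threshold and 6 were lost. The causes of these shifts were not tested. With 1 library per group no value has a replicate check, and the 16 h library was taken to scatter like the others. Genes under about 100 counts per library, such as Ern1 and Eif2ak3 in footprints, are the least precise.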

Other observations

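Cytosolic chaperones and the calcium handling of the ER, which the comparisons above do not include, were counted as well. Of 10 tested cytosolic and mitochondrial heat shock genes, 3 rose and none fell in footprints over 0 to 90 min, and 5 rose and none fell in input, against 12.2% of all tested genes higher and 8.30% lower in footprints, and 14.9% higher and 11.3% lower in input. At 16 h against 0 min 1 rose and 3 fell in footprints (median -0.18), and 3 rose and 1 fell in input (median 0.12), against 25.9% of all tested genes higher and 24.2% lower in footprints, and 28.6% higher and 27.0% lower in input. The J protein Dnajb1 rose early (2.02 ± 0.34, adjusted p = 0.0039 in footprints and 2.24 ± 0.29, adjusted p = 0.00065 in input), which did not pass with a linear time term (1.52, adjusted p = 0.12, and 1.64, adjusted p = 0.071). In root time its footprint change was 1.69 (adjusted p = 0.12), and without the 0 min library its changes were 3.76 in footprints and 3.49 in input. The mitochondrial chaperonin Hspd1 fell by 16 h (-0.90 ± 0.11, adjusted p = 5.1e-05 in footprints and -0.56 ± 0.08, adjusted p = 8.7e-05 in input). Of 10 tested calcium pumps, channels and binding proteins of the ER, 3 rose and 1 fell in footprints at 16 h, and 5 rose and 2 fell in input, beside the same shares of all genes. The calcium release channel Itpr2 (1.37 ± 0.12, adjusted p = 2.5e-06 in footprints and 1.12 ± 0.09, adjusted p = 1.5e-06 in input) and the plasma membrane channel Orai1, which refills the store (1.12 ± 0.23, adjusted p = 0.0016 in footprints and 1.19 ± 0.22, adjusted p = 0.00082 in input), were among those that rose; without the 0 min library Orai1 stood at 0.84 (adjusted p = 0.12) in footprints and 0.66 (adjusted p = 0.12) in input. The calcium pump Atp2a2 rose over 0 to 90 min in both materials, the 1 gene of this list to do so (0.50 ± 0.11, adjusted p = 0.02 in footprints and 0.63 ± 0.07, adjusted p = 0.00017 in input). Its footprint call was lost without the 0 min (0.46, adjusted p = 0.099) or the 75 min library (0.45, adjusted p = 0.076) and with total counts (0.24, adjusted p = 0.22).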
